A study of Mus musculus with 6 samples.

Results

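The coagulation and fibrinolysis genes of mouse liver were compared between LIGHT transgenic (LIGHT Tg) and wild-type (WT) mice. The set was given by name as 32 genes of clotting, of its natural inhibitors and of clot dissolution. Members were every probe set of the array annotated with 1 of these symbols alone, which gave 43 probe sets for 31 genes, out of 45037 probe sets in all. The other gene, Cpb2, whose product slows clot dissolution, matched no probe set by this rule and was not analysed here. Of the 31 genes, 28 lay above the filter on low signals (a mean signal of at least 167.4, taken on the log2 scale) and were tested among 11563 genes. F3, Procr and Plau lay below it and are given as values. Each gene is represented by its probe set with the highest mean, and the others are given beside it.

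The 6 liver samples came from mice aged 4 to 8 weeks, all fed the high-fat diet TD88137 for 2 weeks. The 3 WT samples are labelled B6, and the 3 LIGHT Tg samples carry a transgene for LIGHT, the tumour necrosis factor family ligand Tnfsf14. No strain is named for the transgenic samples, and neither the promoter of the transgene nor the cells that express it are given in the sources used here, so genetic background and transgene cannot be told apart. Genotype was taken from the source names, since the free text of the labels describes the LIGHT Tg samples as wild-type too. Nothing in the labels states that each array is a separate animal, so the tests rest on the spread among these samples, which may be technical.

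Blood clotting is a cascade of plasma proteases, most of them made by hepatocytes. Tissue factor and factor VII start it, a contact pathway and the cofactors VIII and V amplify it, and thrombin then turns fibrinogen into fibrin. The protein C system and tissue factor pathway inhibitor restrain the cascade, and plasmin dissolves the clot. Several of the proteases must be carboxylated in the liver with vitamin K before they can bind membranes.

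Signals are the authors' MAS5 values, 1 number per probe set on a linear scale, and each difference is the mean log2 signal in LIGHT Tg less that in WT, given with limma's moderated standard error (SE). The median signal per array lay between 175.1 and 183.1. The 7 hepatocyte markers matched summed to between 132625 and 139194 in WT and between 121153 and 135218 in LIGHT Tg, and albumin (Alb) had signals of 15912 to 20811 in WT and 16294 to 19370 in LIGHT Tg. Another of them, Tdo2, was lower on every LIGHT Tg array, with 16595, 17540 and 16138 in WT and 11058, 13095 and 9334 in LIGHT Tg. Its difference was -0.60 ± 0.137 (limma adjusted p = 0.117, and 0.0338 with the title-number block described below). With that block 3.52% of all genes fell. The other hepatocyte markers passed in neither fit. The arrays titled 77 and 78, which are LIGHT Tg 1 and WT 1 (the pair), stood apart from the other 4, titled 30 to 35. The signal of Xist, which is transcribed from the inactive X chromosome, was 406.6 and 444.0 there and between 7993 and 9714 elsewhere. The Y-linked genes Kdm5d and Uty, both below the filter, went the other way. Kdm5d had 487.8 and 568.6 in the pair and 41.28 to 108.3 elsewhere, and Uty 245.6 and 435.8 against 76.2 to 132.3. These readings are those of male tissue in the pair and female tissue elsewhere, so sex and title-number set cannot be told apart. As each genotype has 1 array of the pair, results are also given with the title-number set as a block in the fit.

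F7, which starts the cascade, and F10, which makes thrombin, were higher in LIGHT Tg livers. The other tested members did not pass without the block, and fibrinogen, the anticoagulant genes and the fibrinolytic genes passed in neither fit. At 5% FDR (the expected share of false calls) 2 of the 28 tested genes rose, F7 and F10, and none fell (limma, Benjamini-Hochberg over all 22519 probe sets tested). That is 7.14% of the members, against 1.36% of all genes tested, of which 0.839% rose and 0.519% fell. With the block F5 and F11 also passed, giving 4 risen and none fallen, or 14.3% against 7.15% of all genes, of which 3.63% rose and 3.52% fell. In 6 of the 28 genes every LIGHT Tg array was above every WT array (F2, F7, F10, F11, Proz and Plaur), where 9.09% of all genes did so. In none did they all lie below, against 9.62% of all genes. For F7, F10, F11 and F5 the difference was positive in both title-number sets. For F7, F10 and F11 this follows from the lack of overlap, and F5 was chosen by its call with the block.

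**Figure D1:**
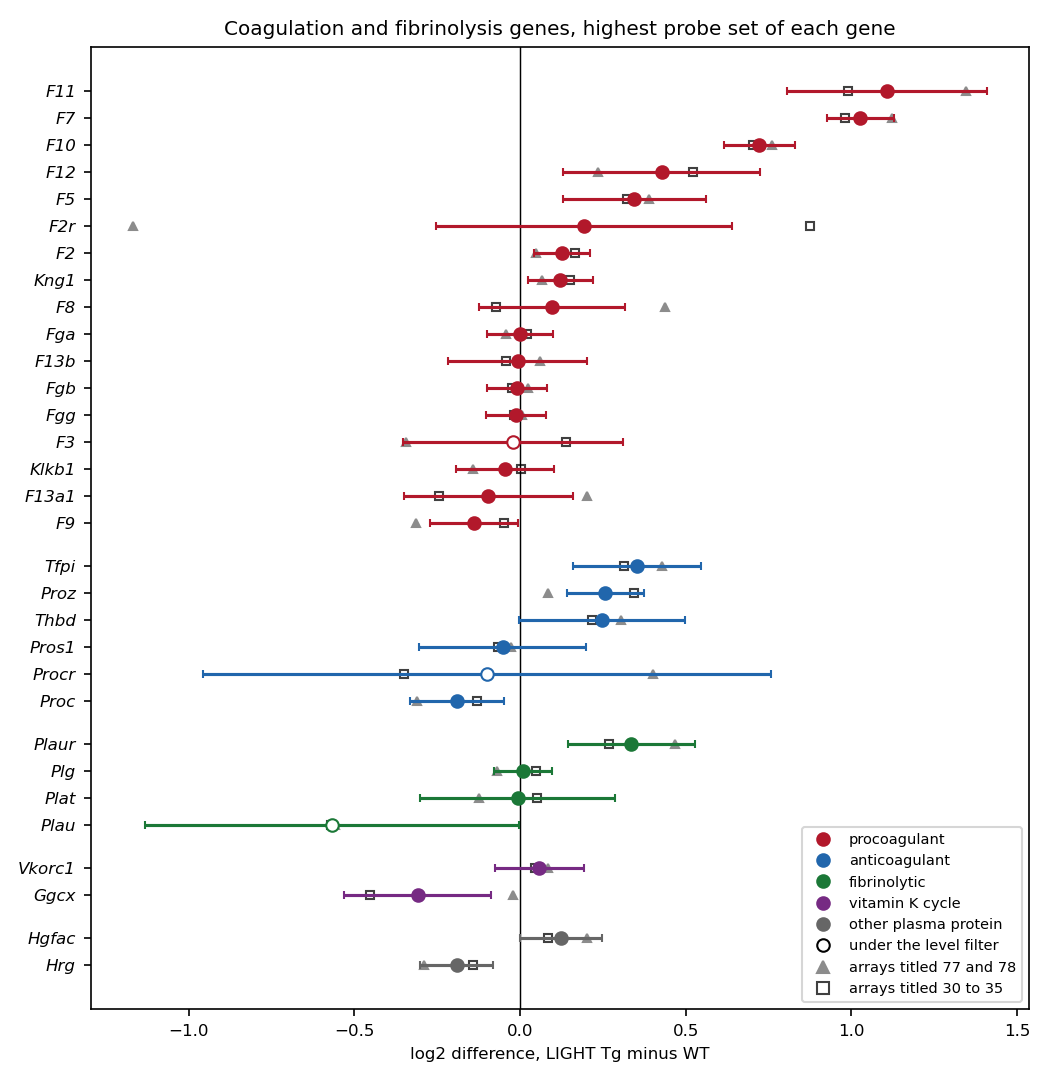
Log2 difference between LIGHT Tg and WT for the 31 genes with a probe set, by role, with the moderated SE (circles and bars, 3 arrays per genotype), in the arrays titled 77 and 78 (triangles) and in those titled 30 to 35 (squares). F11, F7 and F10 have the highest values at 1.11, 1.03 and 0.72, and the 3 fibrinogen genes sit near 0.

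Sequence upstream of the start site is shown first for F7, F10 and F5, which rose or passed with the block and share a motif near the start. F11, which also passed with the block, lacks this motif and is not printed. RefSeq promoters of GRCm38.p6 were at hand for 26 of the 32 genes and not for Kng1, Plg, Proc, Plat, Thbd and Plau. For F10, F5 and F2 the last 100 bases before the start are printed, and for F7, where that stretch lies within another model of the same gene, 30 bases around the motif. Capitals mark TGACCT, the hexamer core recognised by nuclear receptors, HNF4 among them. F2, which also holds it, is shown for comparison.

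F7, chr8:13025988-13026017, plus strand: tcccctccccccTGACCTttgccctcccgg
F10, chr8:13037208-13037307, plus strand: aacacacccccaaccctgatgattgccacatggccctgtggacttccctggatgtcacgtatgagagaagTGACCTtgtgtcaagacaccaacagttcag
F5, chr1:164151735-164151834, plus strand: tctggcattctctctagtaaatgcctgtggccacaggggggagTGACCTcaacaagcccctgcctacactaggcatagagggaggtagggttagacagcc
F2, chr2:91636458-91636557, minus strand: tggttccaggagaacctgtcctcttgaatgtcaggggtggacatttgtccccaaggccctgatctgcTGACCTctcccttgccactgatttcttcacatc

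The hexamer begins 34 bases before the start in F7, 30 in F10, 57 in F5 and 33 in F2, each time on the gene's own strand. Searched on both strands in the last 100 bases, TGACCT occurred in these 4 of the 26 members and in 5.88% of 32851 promoters. Over 250 bases it occurred in 7 of 26 members, with Fgg, Procr and Hgfac added, and in 14% of all promoters. The hexamer was chosen with the sequences in view, and a match is a description of the letters only. The last 100 bases before the F11 start hold a forkhead match (TGTTTNC) and a C/EBP match (TTGCNNAA). Over 100 bases these occur in 6.73% and 3.43% of all promoters and in 3 and 4 of the members. Over 250 bases they occur in 17.8% and 9.56% of all promoters and in 7 and 9 of the members. Fga, Fgb, Klkb1 and Plaur also hold both over 250 bases. No member held the NF-kappaB or the HNF1 pattern searched in 250 bases, and these occur in 0.356% and 0.152% of all promoters. With shares this low, the lack of a match among 26 members does not show that such sites are absent. The 250 bases before the F5 start overlap the long non-coding RNA gene Gm16548.

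F7 encodes factor VII, the protease that binds tissue factor to start clotting. Its signal was 5468, 5444 and 5867 in WT 1 to 3 and 11902, 11176 and 11114 in LIGHT Tg 1 to 3. Every LIGHT Tg value lay well above every WT value, and the replicates of each genotype were close together. F7 rose by 1.03 ± 0.101 on the log2 scale (SE, n = 3 per group), a 2.04-fold change (limma adjusted p = 0.00755, and 0.000850 with the block). The difference was 1.12 in the pair and 0.98 in the other arrays. Its partner tissue factor, F3, was below the filter, with 131.9, 101.2 and 130.4 in WT and 103.9, 117.6 and 136.2 in LIGHT Tg, and the groups overlapped (log2 difference -0.022 ± 0.333).

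F10 encodes factor X, which with factor V forms the enzyme that makes thrombin. At its brightest probe set the signal was 9716, 9192 and 11203 in WT and 16465, 16315 and 16724 in LIGHT Tg. The LIGHT Tg arrays formed a narrow band above WT. F10 rose by 0.72 ± 0.106, or 1.65-fold (adjusted p = 0.0306, and 0.00543 with the block). Both of its other probe sets differed by like amounts, 0.73 ± 0.187 and 0.68 ± 0.184, and passed only with the block (adjusted p = 0.0243 and 0.0263, against 0.157 and 0.190 without).

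F11 encodes factor XI, the contact pathway protease that activates factor IX. Its signal was 1278, 1698 and 2872 in WT and 3246, 4589 and 4184 in LIGHT Tg. The groups did not overlap, but WT varied more here than for F7 or F10. The log2 difference was 1.11 ± 0.302, the highest among the tested members (2.15-fold), with an adjusted p of 0.190 without the block and 0.0214 with it. F5, the cofactor of factor X, had signals of 7469, 11024 and 11437 in WT and 9772, 14440 and 13675 in LIGHT Tg. The pair was lower than the other arrays in both genotypes, so the groups overlapped, while LIGHT Tg was higher within each set (0.39 in the pair and 0.32 in the others). The log2 difference of F5 was 0.345 ± 0.215 (adjusted p = 0.670, and 0.0267 with the block), and its other probe set had 0.53 ± 0.127 (0.136, and 0.0323 with the block). At that dimmer probe set the groups did not overlap, with 8314, 7131 and 8733 in WT and 10362, 12458 and 11956 in LIGHT Tg.

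**Figure D2:**
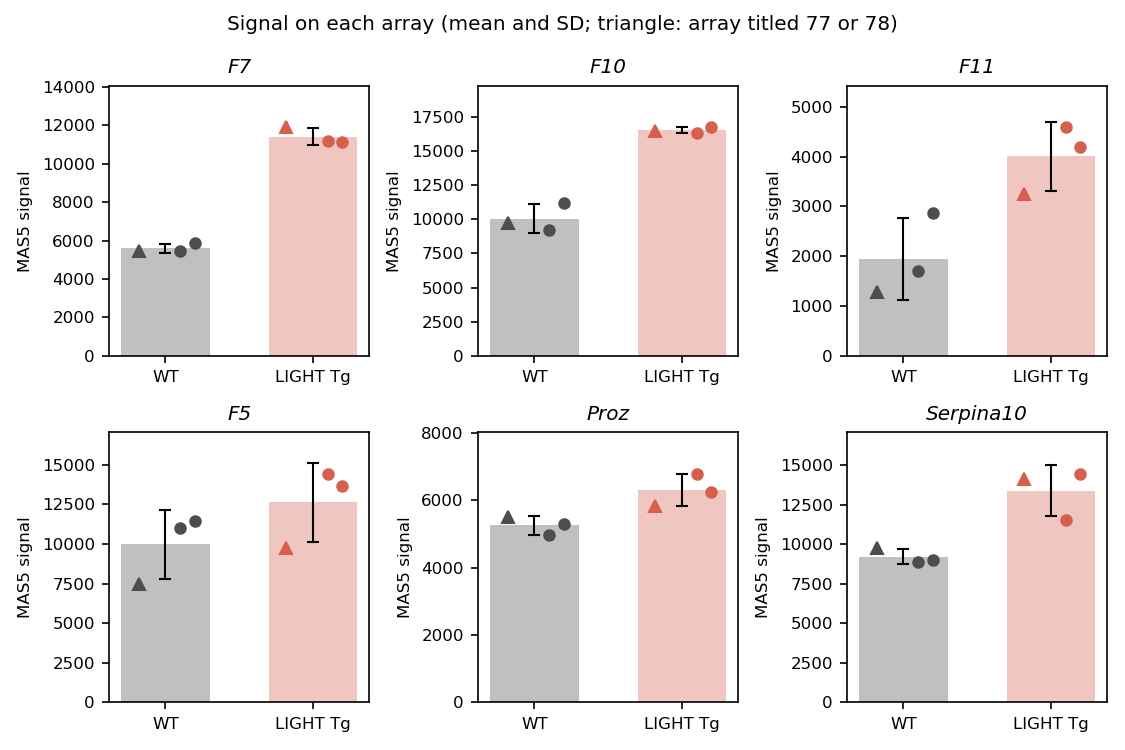
MAS5 signal on each of the 6 arrays for F7, F10, F11, F5, Proz and Serpina10 (bars are means and whiskers the SD of 3 arrays, triangles the arrays titled 77 and 78). LIGHT Tg lies above WT on every array for all but F5, where the array of the pair is the lowest of each genotype.

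The call for F7 was lost without LIGHT Tg 3 (limma adjusted p = 0.0660), and that for F10 without any 1 of the 6 arrays (adjusted p between 0.0520 and 0.166). The log2 differences moved little in these fits, from 0.996 to 1.06 for F7 and from 0.66 to 0.80 for F10. F10 also missed the threshold with no filter (adjusted p = 0.0733) and with eBayes without the trend (0.139). In the 4 arrays titled 30 to 35 alone both genes passed, with adjusted p of 0.00510 and 0.0256, while F11 (0.0909) and F5 (0.0797) did not.

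The thrombin gene F2 had signals of 17442, 17079 and 17614 in WT and 18028, 19444 and 19455 in LIGHT Tg. The groups did not overlap, yet the log2 difference was only 0.13 ± 0.0837 and did not pass (adjusted p = 0.703, and 0.252 with the block). F9, the X-linked gene of factor IX, had 10104, 11199 and 10456 in WT and 8119, 10769 and 10150 in LIGHT Tg. These overlapped, with a difference of -0.14 ± 0.133. F8, the gene of factor VIII, which in liver is made by endothelial cells, had 438.2, 629.6 and 552.8 in WT and 593.4, 472.6 and 665.8 in LIGHT Tg, also overlapping (0.097 ± 0.221). With the block the 95% interval of the difference was -0.0097 to 0.26 for F2, -0.33 to 0.058 for F9 and -0.35 to 0.54 for F8.

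The other contact pathway genes did not pass. F12, the gene of factor XII, had 10186, 4884 and 6049 in WT and 11984, 7475 and 8160 in LIGHT Tg. As for the brighter F5 probe set, the genotypes overlapped because the title-number sets differed. Here the pair was higher, while LIGHT Tg was higher within each set. The log2 difference of F12 was 0.43 ± 0.296 (adjusted p = 0.724, and 0.0718 with the block). Klkb1, plasma prekallikrein, had a difference of -0.045 ± 0.147, and Kng1, the kininogen that carries prekallikrein to surfaces, 0.12 ± 0.0982 and 0.066 ± 0.115 at its 2 probe sets. A probe set of Kng1 may also read the close paralog Kng2.

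Fibrinogen, the substrate of thrombin, did not pass at any of its 3 chains, and its differences lay close to 0. Fga had signals of 19181, 21354 and 21001 in WT and 18626, 21543 and 21410 in LIGHT Tg. The log2 differences of Fga, Fgb and Fgg were -0.00059 ± 0.0984, -0.0091 ± 0.0916 and -0.012 ± 0.0899. Their 95% intervals with the block were -0.12 to 0.12, -0.13 to 0.12 and -0.14 to 0.12, so a change as large as that of F7 or F10 lies outside them. These probe sets are among the brightest of the array, at or above the 99.9th percentile of mean level, and the part of signal compression in these values was not tested. F13b, the carrier chain of the fibrin cross-linking enzyme, had -0.0073 ± 0.211, and F13a1, its catalytic chain, found in macrophages and platelets, -0.096 ± 0.255 at low signal (150.9 to 210.1).

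The thrombin receptor gene F2r had differences of opposite sign in the title-number sets. Its signal was 3730, 1173 and 1420 in WT and 1660, 1877 and 2984 in LIGHT Tg. WT 1 was the highest array and the other WT arrays the lowest. Between genotypes the pair differed by -1.17 and the other arrays by 0.87, and at its dimmer probe set these were -1.62 and 0.66. The interaction of genotype and set was -2.04 ± 0.415 (limma, unadjusted p = 0.00268, adjusted p = 0.183) and did not pass, as for every other member. Over all genes tested 7 passed this interaction, or 0.0605%. Both probe sets are of a type whose probes can match more than 1 transcript.

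**Figure D3:**
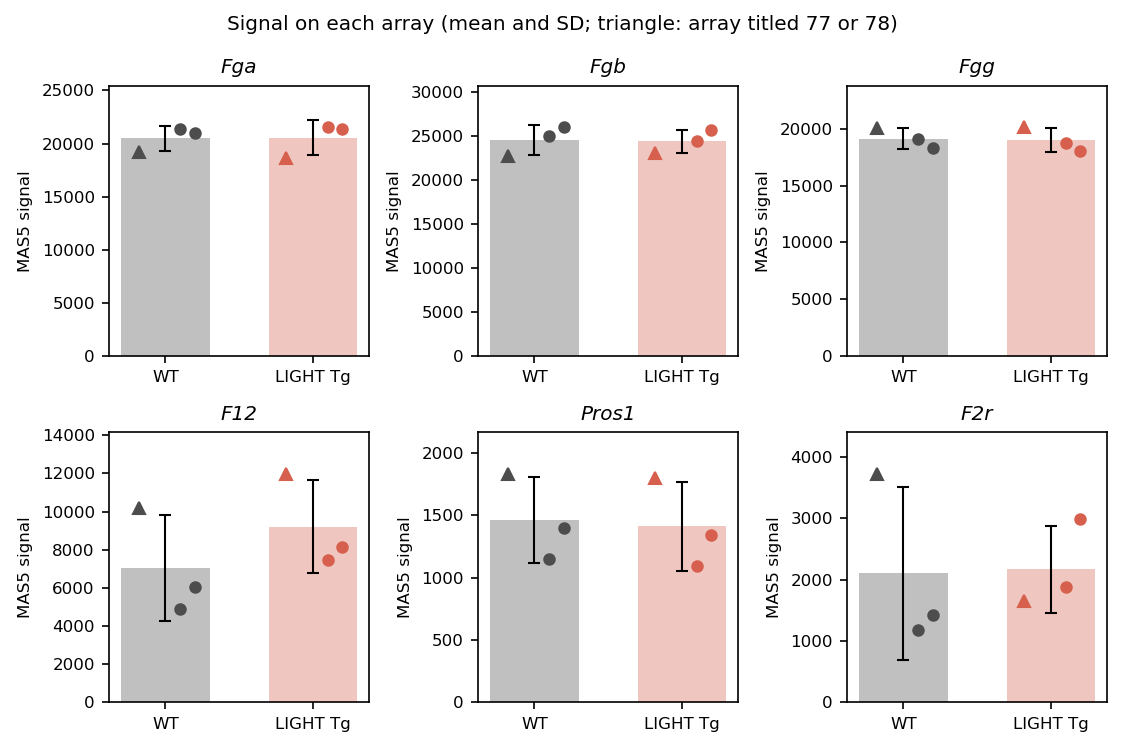
MAS5 signal on each of the 6 arrays for the fibrinogen genes Fga, Fgb and Fgg and for F12, Pros1 and F2r (bars are means and whiskers the SD of 3 arrays, triangles the arrays titled 77 and 78). The fibrinogen genes overlap between genotypes, F12 and Pros1 are higher on the triangle arrays of both genotypes, and F2r is highest on the WT triangle and next on LIGHT Tg 3.

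Anticoagulant genes did not pass in either fit, with 0 of 5 called. Over all genes tested 1.36% passed, and 7.15% with the block, so 0 calls among 5 genes do not set this role apart. The anticoagulant median log2 difference was 0.25, beside 0.11 for the 16 tested procoagulant genes. The median was 0.0079 for the 3 fibrinolytic genes and -0.0087 over all genes tested. The order of the first 2 medians depended on the filter, with 0.0965 for anticoagulant and 0.0972 for procoagulant genes when none was set and 0.102 and 0.121 at the 75th percentile. Without LIGHT Tg 3 they were 0.0525 and 0.0314. Proz, the gene of protein Z, a cofactor for the inhibition of factor X, had 5511, 4955 and 5304 in WT and 5837, 6784 and 6243 in LIGHT Tg. The LIGHT Tg arrays were all higher by a small margin. Its difference was 0.26 ± 0.117 (adjusted p = 0.495, and 0.163 with the block), and that of its other probe set 0.38 ± 0.140 (0.368, and 0.115). Tfpi, the inhibitor of the tissue factor and factor VII complex, had positive differences at each of 4 probe sets, from 0.25 ± 0.188 to 0.64 ± 0.254, with adjusted p of 0.0612 or more even with the block.

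The genes of the protein C system did not pass either. Proc, the protease that inactivates factors V and VIII, had 8175, 6084 and 7484 in WT and 6587, 6518 and 5836 in LIGHT Tg, which overlapped (-0.19 ± 0.142, adjusted p = 0.754). Pros1, the gene of its cofactor protein S, had -0.053 ± 0.251. Thbd, thrombomodulin, which turns thrombin into an activator of protein C, had 0.25 ± 0.251, with 261.1 to 461.5 in LIGHT Tg and 294.8 to 299.4 in WT. Procr, the endothelial receptor of protein C, was below the filter, with signals from 28.55 to 199.9 and overlapping groups.

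Fibrinolytic genes showed no call, with 0 of 3 past the threshold. With 1.36% of all genes passing, and 7.15% with the block, this count does not set the role apart. Plg, plasminogen, had 18781, 19433 and 19021 in WT and 17882, 19866 and 19866 in LIGHT Tg, a log2 difference of 0.0079 ± 0.0868 (95% interval with the block -0.13 to 0.14). Plat, the tissue-type activator of plasminogen, had -0.0077 ± 0.294 at its brighter probe set, and its dimmer one was below the filter. Plau, the urokinase gene, was below the filter at both probe sets, with signals of 53.31, 127.8 and 116.9 in WT and 36.16, 67.90 and 99.50 in LIGHT Tg at the brighter, and the groups overlapped. Its receptor Plaur had 298.9, 279.0 and 305.9 in WT and 413.7, 334.4 and 370.7 in LIGHT Tg. All LIGHT Tg values were higher, with a difference of 0.34 ± 0.191 that did not pass (adjusted p = 0.630, and 0.246 with the block).

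The remaining members act on or beside the cascade. Ggcx, the vitamin K-dependent carboxylase, had differences of -0.31 ± 0.222 and -0.27 ± 0.170 at its 2 probe sets, and Vkorc1, which recycles vitamin K and is the target of warfarin, 0.058 ± 0.134. Of the 7 vitamin K-dependent proteins (F2, F7, F9, F10, Proc, Pros1 and Proz) the F7 and F10 already counted were called, where 0.839% of all genes rose, and differences ran from -0.19 to 1.03. Hrg, a plasma glycoprotein that binds heparin and plasminogen, had -0.19 ± 0.111, and Hgfac, a protease related to factor XII that activates hepatocyte growth factor, 0.12 ± 0.124. None of these 4 genes passed in either fit.

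Members also varied with the title-number set, a comparison added after seeing the data. The set cannot be told apart from sex, as given above. With genotype as the block 5 of 28 differed at 5% FDR, or 17.9%, against 25% of all genes. F12, Pros1 and Vkorc1 were higher on the pair, by 0.76 ± 0.118, 0.55 ± 0.145 and 0.29 ± 0.0685, and F5 and F13b were lower, with -0.56 ± 0.0699 and -0.52 ± 0.0857. The dimmer F5 probe set did not differ past the threshold, at -0.080 ± 0.112 (limma adjusted p = 0.618). F7 and F10 differed little between the sets (0.024 ± 0.0805 and -0.034 ± 0.0913).

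F7, F10 and Proz lie next to each other on mouse chromosome 8 in the RefSeq gene order, and F11 and Klkb1 are neighbours elsewhere on the same chromosome. The 3 protein-coding genes on each side were read out to place these values, a choice made after seeing them. Along the first locus the log2 differences were 1.03 for F7, 0.72 for F10 and 0.26 for Proz, and beyond Proz they were 0.14 ± 0.179 for Pcid2, -0.23 ± 0.190 for Cul4a and 0.023 ± 0.115 for Lamp1, none of which passed. On the other side Mcf2l, a guanine nucleotide exchange factor gene next to F7, had signals of 39.93, 85.04 and 83.92 in WT and 305.3, 378.8 and 319.4 in LIGHT Tg. LIGHT Tg was far higher on every array, at 2.34 ± 0.390, but the gene is below the filter. Its WT signals are low, the 20th percentile of all values being 37.42, so the size of this difference is not a measured fold. Among all probe sets without a filter its adjusted p was 0.0646, and 0.0122 with the block. Atp11a, the gene beyond it, had -1.49 ± 0.379 (adjusted p = 0.157, and 0.0226 with the block), and Tubgcp3 -0.045 ± 0.303.

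**Figure D4:**
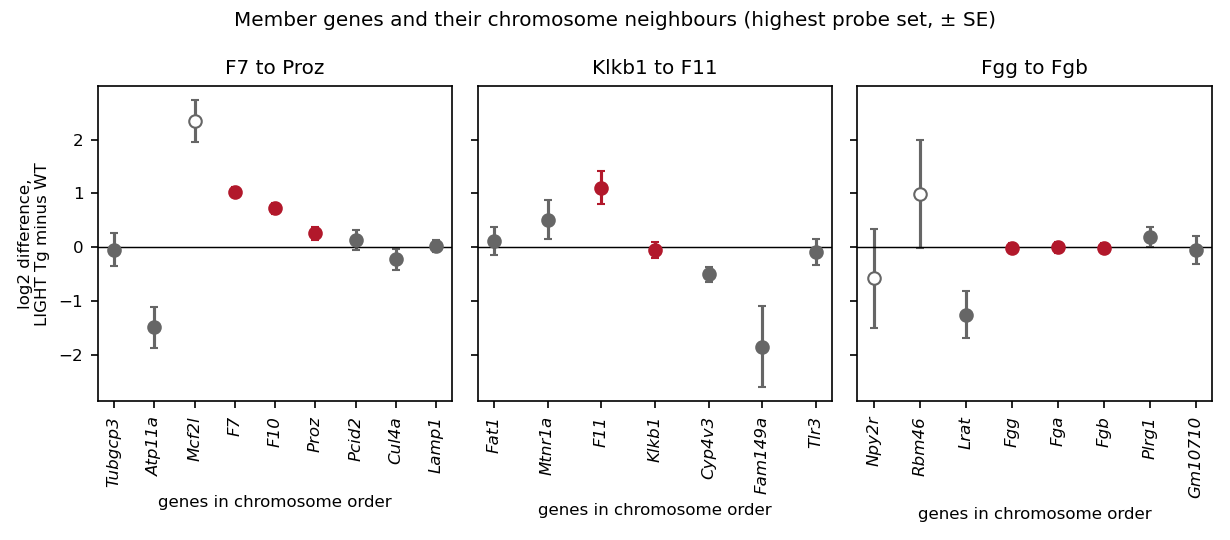
Log2 difference ± SE (3 arrays per genotype) for member genes (red) and up to 3 protein-coding neighbours on each side (grey) in chromosome order, for the loci of F7, F10 and Proz, of F11 and Klkb1, and of the fibrinogen genes; open circles lie below the filter, and neighbours with no probe set are left out. Mcf2l, F7, F10 and Proz have the highest values at their locus, F11 is high beside Klkb1 at -0.045, and Fgg, Fga and Fgb sit near 0.

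F11 stood apart from Klkb1 beside it, which had -0.045, and from Cyp4v3 beyond, with -0.51 ± 0.145 (adjusted p = 0.213, and 0.0132 with the block). On the far side of F11, Mtnr1a had 0.51 ± 0.366 and Fat1 0.12 ± 0.256. The 3 fibrinogen genes, which also form 1 cluster, had values near 0, with the retinoid enzyme gene Lrat next to Fgg at -1.25 ± 0.436 (adjusted p = 0.328, and 0.0619 with the block).

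Other genes of the pathway, from lists drawn up with earlier results known, gave few calls. Over all genes tested 1.36% passed, and 7.15% with the block, where 3.63% rose. Of 7 tested protease inhibitors none passed without the block and 1 rose with it (median 0.0035). That gene was Serpina10, the inhibitor for which protein Z is the cofactor, with 9735, 8880 and 8987 in WT and 14153, 11546 and 14459 in LIGHT Tg. All LIGHT Tg values were higher, and the difference was 0.53 ± 0.121 (adjusted p = 0.114, and 0.0194 with the block). Serpinc1, antithrombin, had -0.033 ± 0.0823. Of 15 activators, receptors and cofactors 14 passed in neither fit (median -0.00076 over the 15). The other was Vwf, the endothelial carrier of factor VIII, with 147.6, 153.0 and 193.5 in WT and 734.2, 791.9 and 1073 in LIGHT Tg. The mean log2 signal of Vwf in WT, 7.35, is under the filter of 7.387, so the gene entered the test only through its LIGHT Tg signals. Its fitted difference of 2.39 ± 0.229 (adjusted p = 0.00678, and 0.000929 with the block) is therefore given as a description and its size is uncertain.

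Among 5 tested hepatic transcription factors known to act on coagulation genes, none passed without the block, where 1.36% of all genes did. With the block 1 rose and 1 fell, against 3.63% and 3.52% of all genes. Onecut1 had 223.0, 258.0 and 134.2 in WT and 497.7, 1250 and 1847 in LIGHT Tg. LIGHT Tg was higher throughout but spread widely, with a difference of 2.41 ± 0.494 (adjusted p = 0.0861, and 0.0202 with the block). Cebpb, a mediator of the acute phase response, had -0.50 ± 0.180 (0.354, and 0.0447 with the block), and Hnf4a, whose motif core was searched above, had a difference of 0.0046 ± 0.107. Of 16 genes listed as acute phase genes, a class to which fibrinogen belongs, 1 fell in either fit, against 0.519% of all genes (3.52% with the block), and 15 did not pass (median -0.38). It was Saa4, with 15597, 11560 and 12960 in WT and 6944, 6187 and 7588 in LIGHT Tg, at -0.95 ± 0.145 (adjusted p = 0.0347, and 0.00543 with the block). That call is for Saa4 alone and does not stand for the class, as Saa1, Saa2 and Saa3 passed in neither fit. The array LIGHT Tg 2 stood apart in this class, as seen in genes chosen after their values were known. Orm2 had 11922, 6170 and 8446 in WT and 6307, 581.6 and 2363 in LIGHT Tg (-2.05 ± 0.776, adjusted p = 0.376). Saa2 had 18870, 5397 and 6794 in WT and 13416, 585.3 and 3006 in LIGHT Tg (-1.62 ± 1.06, adjusted p = 0.694). Lcn2 had 13350, 12825 and 13363 in WT and 14159, 926.3 and 7405 in LIGHT Tg (-1.52 ± 0.886, adjusted p = 0.642). LIGHT Tg 2 was the lowest array for each, while Fga, Fgb and Fgg had signals of 21543, 24462 and 18805 on it.

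Some members are made outside hepatocytes, so markers of other cells were read beside them. In bulk liver fewer cells of a type and less RNA per cell cannot be told apart. The 9 endothelial markers summed to between 8010 and 9121 in WT and between 11549 and 14605 in LIGHT Tg, without overlap. This sum includes Vwf and does not stand for each marker. Vwf, Lyve1, Stab2 and Clec4g were above WT on every LIGHT Tg array, where 9.09% of all genes were, and the other markers overlapped. Lyve1 rose, with 924.8, 830.7 and 914.7 in WT and 1663, 2122 and 2633 in LIGHT Tg (1.24 ± 0.1998, adjusted p = 0.0393), and Stab2 passed only with the block (adjusted p = 0.0127). Vwf is also on this list and passed only through its LIGHT Tg signals, as given above. Pecam1, Cdh5, Kdr, Tek and Stab1 overlapped between genotypes, with differences of 0.19, 0.12, -0.088, -0.034 and 0.24. Clec4g had 0.36, and none of these passed in either fit. Over all genes 0.839% rose, and 3.63% with the block. Beside this the endothelial members F8, Thbd, Tfpi and Plat had differences of 0.097, 0.25, 0.35 and -0.0077, none past the threshold. The 5 platelet markers matched summed to 1330 to 1761 in WT and 1520 to 2340 in LIGHT Tg, and the 7 Kupffer cell and macrophage markers to 28262 to 32276 and 19668 to 31718, both overlapping. The 7 stellate cell markers, 17071 to 22440 in WT and 19163 to 20099 in LIGHT Tg, overlapped too. The part of these cells in the members' values was not tested.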

How the data were processed

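Liver RNA of 3 WT and 3 LIGHT Tg samples was hybridised to 1 Affymetrix array each. The values are MAS5 signal intensities as deposited, with MAS5 named in the submitters' processing notes; no version, scaling or detection call was found in the labels. Of 45101 probe sets 64 controls were left out, 34945 of the others had 1 gene symbol in the platform annotation, 932 had several and 9160 had none. Members and lists were chosen with earlier results of these data known.

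Signals were floored at 1 and put on the log2 scale. Probe sets with a mean log2 at or above the median of 7.387 (22519) were tested two-sided with limma 3.58.1 under R 4.3.3 (lmFit, then eBayes using a trend in the variance), with Benjamini-Hochberg adjustment over all of them. Genes below the filter have p-values from the fit without it. The title-number set was tried as a block and as an interaction; replicate numbers follow listing order and pair no samples. All members were to be named; of the other lists, those past the threshold in either fit, or else the brightest, and genes beyond these were chosen after their values were seen. The fits were tested on simulated data. Intervals are 95% from the moderated statistics. The number of arrays limits precision. Plots used Python 3.11.15 and matplotlib 3.10.9.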

Additional observations from a re-analysis of the deposited data

How the results depend on the processing

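There were 29 moved summary values and 42 changed signs, and those with 1 array left out are given here mostly as ranges. No sign change touched a called gene. The causes were not tested. The count of member genes past the threshold was 1 with no filter or without the trend, 4 with the block, and 0 to 1 with 1 array left out (0 without LIGHT Tg 3). Over all probe sets it was 264, 148 without the trend, 1992 with array weights, 1457 with the block, 956 in the arrays titled 30 to 35 alone, and 43 to 306 with 1 array left out (43 without LIGHT Tg 3, 63 without WT 3, 68 without WT 2, 80 without LIGHT Tg 2). The block gave 1 protease inhibitor and 2 transcription factors. The interaction called 15 probe sets, and 3 with no filter, 7 with a filter at the 75th percentile, 8 with an offset and 2 without the trend. The anticoagulant median was 0.097 with no filter and 0.10 with the stricter filter, and the fibrinolytic median 0.17 with array weights; with 1 array left out the medians ran from 0.031 to 0.16 for procoagulant, 0.052 to 0.25 for anticoagulant and 0.0058 to 0.16 for fibrinolytic genes.

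Quantile normalization turned the sign of F13b (0.060), Fga (0.0043), Fgb (0.060), Fgg (0.0012), Klkb1 (0.0013) and Plat (0.030), a common median that of Fga (0.0027), array weights those of Fga (0.017) and Plat (0.17), and the arrays titled 30 to 35 alone those of F8 (-0.073), Fga (0.020), Klkb1 (0.0028) and Plat (0.050). With 1 array left out the differences ran from -0.046 to 0.23 for F8, -0.17 to 0.038 for F13a1, -0.20 to 0.15 for F13b, -0.048 to 0.068 for Fga, -0.066 to 0.033 for Fgb, -0.055 to 0.025 for Fgg, -0.14 to 0.054 for Klkb1, -0.13 to 0.70 for F2r, -0.24 to 0.12 for Pros1, -0.017 to 0.058 for Plg, -0.24 to 0.16 for Plat and -0.045 to 0.15 for Vkorc1.

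F7 passed in 16 of 17 settings and F10 in 9 of 17, while F5 and F11 passed only with the block. The title-number set was fitted as a block of arrays, as given above. Pairing by replicate number was not used, because those numbers follow listing order and tie no sample to another. The number of arrays limits precision, and detection calls were not used here.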
